A study of Mus musculus with 4 samples.

Results

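The genes studied here are 10 mouse genes of lipolysis and lipid droplets, Pnpla2, Abhd5, Lipe, Mgll, G0s2, Plin2, Plin3, Plin5, Ldah and Lpin1, out of 21887 protein-coding genes, and they were read against the chromatin sites of SHP in the fed intestine. They were listed by name for their function, and the list was drawn up with earlier results of these data known. SHP (small heterodimer partner, gene Nr0b2) is an orphan nuclear receptor without a DNA-binding domain, which reaches chromatin through other factors. Chromatin immunoprecipitation with an SHP antibody followed by sequencing was done on jejunum and ileum of SHP-KO mice, in which the SHP gene is knocked out, and of WT C57BL/6 mice as controls. All mice were 8 to 12 weeks old, had been fasted for 12 h and then ate normal chow for 4 h, so no fasted group is available for comparison. Material came from 3 sets per sample kind, each pooled from 3 mice. An input sample of each genotype was not analysed here. There is 1 peak list per genotype, so no spread between replicates can be given and no test between conditions was made. The whole tissue was used, so the cell types behind a peak cannot be told apart.

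Cells keep triglyceride in droplets under a coat of perilipins. Triglyceride is taken apart in steps by adipose triglyceride lipase (Pnpla2) with its coactivator Abhd5, by hormone-sensitive lipase (Lipe) and by monoglyceride lipase (Mgll), and G0s2 is an inhibitor of the first lipase. Enterocytes form such droplets after a fatty meal and empty them by cytosolic lipolysis and by lipophagy, the autophagy of droplets.

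The SHP-KO list held 7 peaks and the WT list 5775. No SHP-KO peak lay within 50 kb of any of the 10 genes. The closest was 20.62 Mb from Pnpla2, and 5 of the 10 genes lie on chromosomes with no SHP-KO peak. The lists carry different filters, so the empty SHP-KO surroundings do not show that a WT peak depends on SHP. In the WT list the enrichment value (the deposited signal of each peak, on a scale that is not stated) had a median of 5.65 and an interquartile range of 4.93 to 6.46. Read depth is unknown. An enrichment value and −log10 p shared exactly with at least 1 other peak were found for 89.9% of the peaks, so ranks among close values are coarse.

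A gene was counted as occupied when a WT summit, the highest point of a peak, lay within 5 kb of either end of the gene. Of the 10 genes, 6 were occupied (60%), namely Pnpla2, Abhd5, Mgll, Plin5, Ldah and Lpin1, against 26.4% of all protein-coding genes. The 4 without a near summit were Lipe, G0s2, Plin2 and Plin3. Within 1 kb of an end, 5 of the 10 had a summit (50%), against 20.7% of all genes, and within 50 kb 9 of the 10 had one (90%), against 48.2%. These shares describe 10 genes listed with earlier results known and carry no test. Of the occupied genes, Plin5 had the most distant closest summit, at 1365 bp, and of the unoccupied ones Plin3 had the nearest, at 13593 bp, so any limit between these distances gives the same 6 genes.

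**Figure D1:**
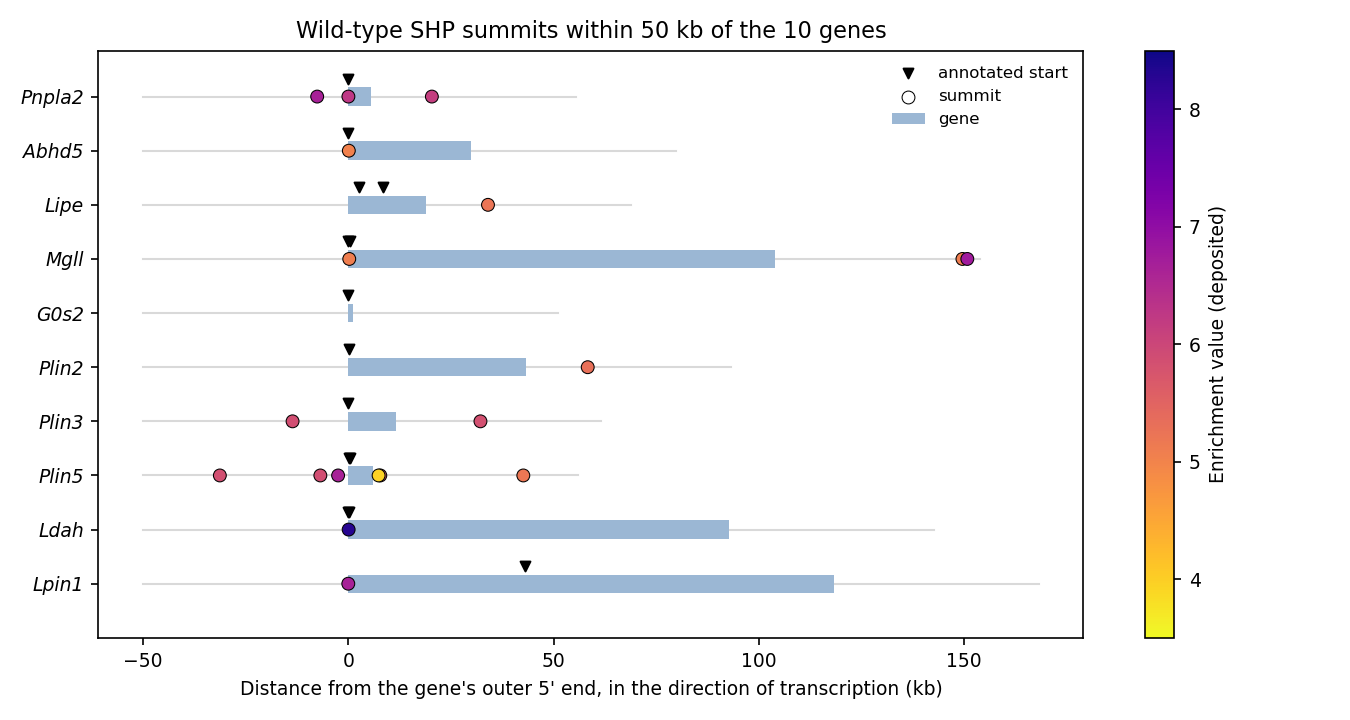
Each row is a gene, drawn to scale from its outer 5′ end at 0 kb in the direction of transcription, with annotated starts as triangles and WT SHP summits within 50 kb of an end as dots coloured by the deposited enrichment value. Pnpla2, Abhd5, Mgll, Ldah and Lpin1 have a dot at the 5′ end, the 3 near dots of Plin5 lie beside the gene, and G0s2 has none.

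Promoter sequences of these genes were taken from RefSeq (GRCm38.p6, the coordinates of mm10), from 250 bases before the annotated start to 50 after it, to show where the summits sat. Capitals mark matches on either strand to the motifs searched, which were AAGGTCA (an extended nuclear receptor site read by NR5A and ERR receptors), CACGTG (the E-box core of the elements bound by TFEB), GGGCGG (the GC box), TGACTCA (the AP-1 site), TGACGTCA (the cyclic AMP response element) and the nuclear receptor direct repeat with a spacer of 1 base. The first base of the annotated start is base 251 of each window and counts as position 0. The windows are those of the genes with a summit within 1 kb of an annotated start and, for contrast, that of G0s2, which had no peak. Of the overlapping Ldah windows the second is shown, and the first, which also holds the summit, is left out.
Pnpla2, chr7:141454938-141455237, plus strand: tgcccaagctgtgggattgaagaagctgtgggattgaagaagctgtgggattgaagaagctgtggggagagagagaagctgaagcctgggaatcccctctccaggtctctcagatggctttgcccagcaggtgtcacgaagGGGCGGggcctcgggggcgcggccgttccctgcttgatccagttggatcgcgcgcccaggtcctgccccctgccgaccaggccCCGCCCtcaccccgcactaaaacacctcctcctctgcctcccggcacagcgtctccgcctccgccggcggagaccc
Abhd5, chr9:122351366-122351665, plus strand: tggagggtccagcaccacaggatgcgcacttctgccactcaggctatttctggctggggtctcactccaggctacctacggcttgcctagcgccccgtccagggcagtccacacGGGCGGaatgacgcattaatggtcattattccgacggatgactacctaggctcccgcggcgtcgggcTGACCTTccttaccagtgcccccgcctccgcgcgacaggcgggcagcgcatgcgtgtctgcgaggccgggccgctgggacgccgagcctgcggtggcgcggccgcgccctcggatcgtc
Mgll, first start, chr6:88724162-88724461, plus strand: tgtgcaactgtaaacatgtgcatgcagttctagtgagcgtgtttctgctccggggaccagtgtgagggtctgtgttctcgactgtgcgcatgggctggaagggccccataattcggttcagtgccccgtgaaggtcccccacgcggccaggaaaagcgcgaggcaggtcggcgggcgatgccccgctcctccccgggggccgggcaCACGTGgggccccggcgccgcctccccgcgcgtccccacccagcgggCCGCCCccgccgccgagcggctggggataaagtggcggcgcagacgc
Mgll, second start, chr6:88724454-88724753, plus strand: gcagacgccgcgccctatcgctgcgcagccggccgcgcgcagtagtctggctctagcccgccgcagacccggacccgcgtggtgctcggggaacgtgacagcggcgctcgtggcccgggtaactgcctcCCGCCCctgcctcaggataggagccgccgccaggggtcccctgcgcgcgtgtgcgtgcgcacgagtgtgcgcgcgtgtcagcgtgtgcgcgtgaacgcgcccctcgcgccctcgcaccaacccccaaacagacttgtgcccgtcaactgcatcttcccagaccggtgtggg
Ldah, second start, chr12:8207943-8208242, plus strand: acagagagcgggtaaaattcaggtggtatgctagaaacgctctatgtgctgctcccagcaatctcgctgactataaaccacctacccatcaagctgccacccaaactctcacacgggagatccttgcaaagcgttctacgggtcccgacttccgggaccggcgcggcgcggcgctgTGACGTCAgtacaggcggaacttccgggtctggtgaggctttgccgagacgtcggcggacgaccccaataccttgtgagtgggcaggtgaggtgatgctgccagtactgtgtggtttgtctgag
G0s2, chr1:193273139-193273438, minus strand: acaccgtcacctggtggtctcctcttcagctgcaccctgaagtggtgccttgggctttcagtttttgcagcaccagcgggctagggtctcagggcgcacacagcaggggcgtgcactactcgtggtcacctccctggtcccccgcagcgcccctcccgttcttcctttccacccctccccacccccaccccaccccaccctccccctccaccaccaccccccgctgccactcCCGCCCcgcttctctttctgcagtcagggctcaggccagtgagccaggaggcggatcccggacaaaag

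The Pnpla2 summit is base 263 of its window, the Mgll summit base 179 of the second Mgll window and the Ldah summit base 225 of the Ldah window. The Abhd5 summit lies past the end of the window, 116 bp downstream of the start, though the peak itself overlaps the window. No WT peak overlapped the G0s2 window.

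Of the genes that take triglyceride apart, Pnpla2, Abhd5 and Mgll each had 1 summit at the 5′ end, and Lipe had none near. Pnpla2 (chr7:141455188-141460743), which encodes the lipase of the first step, had a peak at chr7:141455012-141456418 with its summit 12 bp inside the gene. Its enrichment value was 6.26, which puts it at the 69.6th percentile (the share of WT peaks with this value or a lower one), and its −log10 p of 18.8 was at the 82.3rd. The peak was 1407 bp wide, above the upper quartile of widths in the list (1328 bp). The same summit lay 3841 bp from the end of Rplp2, a ribosomal protein gene of the same strand, and 7549 bp downstream of its start, so it counts for both genes by the distance rule while Pnpla2 is by far the closer.

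Pnpla2 had 3 WT summits within 50 kb, against a median of 0 over all protein-coding genes. A peak with a higher enrichment value than that of the Pnpla2 start (6.65 against 6.26) lay 7594 bp upstream. Its summit, at chr7:141447594, was 29 bp from an end of Pidd1, which encodes a death-domain protein. The same summit lay just upstream of the start of Rplp2, at chr7:141447651. A further peak of value 6.16 lay 14797 bp beyond the other end of Pnpla2, nearest to Tspan4, a tetraspanin gene.

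Abhd5 (chr9:122351616-122381524), whose product activates the Pnpla2 lipase, had a single peak within 50 kb, at chr9:122351256-122352187. Its summit was 116 bp inside the gene and no other protein-coding gene had an end within 5 kb of it. The 2 deposited measures of this peak ranked it differently. Its enrichment value of 5.02 was at the 28.3rd percentile of WT peaks, and its −log10 p of 17.5 at the 75.2nd.

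Mgll (chr6:88724412-88828360), which encodes the lipase of the last step, had a peak at chr6:88724226-88725135. The summit lay 220 bp downstream of the first annotated start and 72 bp upstream of the second, with no other gene end within 5 kb. This was among the weaker of the near peaks by both measures, with an enrichment value of 5.10 (30.6th percentile) and a −log10 p of 12.0 (20.5th percentile). Exactly this pair of values was held by 52 other WT peaks. Beyond the 3′ end of Mgll, 45701 and 46890 bp away, lay peaks of 5.09 and 6.77, both nearest to Podxl2.

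Lipe (chr7:25379527-25398486), which encodes hormone-sensitive lipase, had no summit within 5 kb. The only summit within 50 kb was 15071 bp beyond its 3′ end, with an enrichment value of 5.22 and a −log10 p of 10.2 (8.33rd percentile). From the Lipe starts it was 25656 and 31531 bp away.

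G0s2 (chr1:193272160-193273188), the inhibitor of the Pnpla2 lipase, was the only one of the 10 genes with no WT summit within 50 kb. Among all protein-coding genes 51.8% had none there. The activator Abhd5 therefore had a WT peak at its start and the inhibitor G0s2 had none, a contrast between single genes that carries no test.

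Plin2, Plin3 and Plin5, the perilipin genes among the 10, had no summit within 1 kb of their own ends. Only 20.7% of all protein-coding genes had one that close, so most genes lack it. Plin2 (chr4:86626910-86670217) encodes the coat protein found on droplets of most cells. It had 1 summit within 50 kb, 15027 bp beyond its 3′ end and 192 bp from Haus6, with a value of 5.31. Plin3 (chr17:56278962-56290511), which encodes a coat protein that moves from the cytosol to new droplets, had summits 13593 bp upstream of its start (5.88, nearest to Uhrf1) and 20644 bp beyond its 3′ end (5.84, nearest to Fem1a). Both lay closer to another gene than to Plin3.

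Plin5 (chr17:56111597-56117606), a perilipin known from tissues that burn fat, was occupied only by peaks that lay at its neighbours. It had 3 summits within 5 kb, a number reached by 1.14% of occupied protein-coding genes, and 6 within 50 kb, a number reached by 0.809% of all protein-coding genes. The highest of the near peaks, at chr17:56119199-56120997 (enrichment value 6.66, −log10 p 14.9), had its summit 2496 bp upstream of the 5′ end of Plin5, within Lrg1. The other near summits lay 1777 and 1365 bp beyond the 3′ end of Plin5, with values of 5.64 and 3.96. They stood 38 and 450 bp upstream of the annotated start of Plin4, another perilipin gene on the same strand. The weaker of them was 199 bp wide with a −log10 p of 6.04, at the 1.16th percentile of the list. No peak overlapped either annotated Plin5 promoter window. When each summit was given only to the gene with the closest end, Plin5 was no longer occupied.

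Ldah had the strongest near peak of the 10 genes. Ldah (chr12:8208095-8300811) encodes a hydrolase found on lipid droplets. Its peak at chr12:8208018-8208527 had an enrichment value of 8.30, which ranked 113 of 5775 (98.1st percentile), and a −log10 p of 21.5 (92.0th percentile). The peak was narrow, at 510 bp against a lower quartile of 713 bp in the list. Its summit lay 41 bp downstream of the first annotated start and 26 bp upstream of the second, and no other gene end was within 5 kb. It was the only peak within 50 kb of Ldah.

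Lpin1 (chr12:16535669-16653903) encodes a phosphatidate phosphatase that makes diacylglycerol for triglyceride synthesis and also acts in the nucleus with transcription factors. Its peak, at chr12:16653363-16654154, had its summit 14 bp outside the outer 5′ end. The enrichment value was 6.66 and the −log10 p 14.9, a pair of values held by 13 other WT peaks, the strongest peak near Plin5 among them. The outer 5′ end of Lpin1 overlaps the beginning of Ntsr2, a neurotensin receptor gene of the opposite strand, and the summit lay 447 bp downstream of the Ntsr2 start. The only Lpin1 start in the promoter table was 42937 bp inside the gene, and no WT summit lay within 5 kb of it. Lpin1 therefore counted as occupied through the outer end of its annotated interval, which lies within Ntsr2. Counted from annotated starts, 5 of the 10 genes had a summit within 5 kb (50%), against 24.3% of the 17492 protein-coding genes with a start in that table. Lpin1 dropped out and Plin5 stayed.

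**Figure D2:**
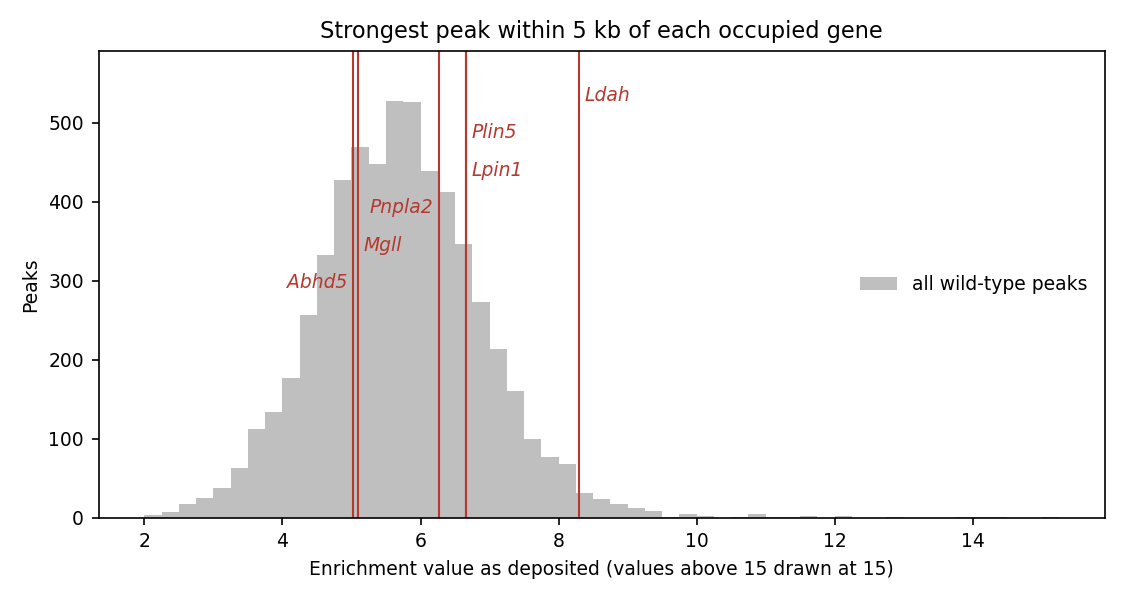
The grey bars count all 5775 WT peaks by deposited enrichment value, with values above 15 drawn at 15 (the highest was 37.2), and the red lines mark the strongest peak within 5 kb of each of the 6 occupied genes. Ldah (8.30) stands in the upper tail, Plin5 and Lpin1 share 6.66, Pnpla2 has 6.26, and Mgll (5.10) and Abhd5 (5.02) lie below the list median of 5.65.

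Over the 6 occupied genes the median of the strongest enrichment value was 6.46, against 5.73 over all 5778 occupied protein-coding genes. The 6 values ran from 5.02 to 8.30 and lay on both sides of that median. The value of 6.66 at Plin5 came from a summit within Lrg1, and the same value at Lpin1 from a summit that also lay within Ntsr2. The deposited score, whose scale is not stated, gave another order. It was at the list maximum of 1000 for the peaks at the starts of Pnpla2, Abhd5 and Ldah, a value held by 25.4% of WT peaks, and it was 824 for Mgll, 751 for the strongest Plin5 peak and 579 for Lpin1, against a list median of 777. By score, Pnpla2, Abhd5 and Ldah were thus at the top, and Lpin1 was close to the lowest score of the list (540).

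For 3 of the 6 occupied genes (Pnpla2, Plin5 and Lpin1) the strongest summit within 5 kb also lay within 5 kb of another protein-coding gene, and 45.1% of all occupied genes shared theirs. Abhd5, Mgll and Ldah did not share it. Of the 8 summits within 5 kb of the 10 genes, 5 had an end of one of the 10 genes as their closest gene end. When each summit was given only to its closest gene, 5 of the 10 genes were occupied (50%), against 21.0% of all protein-coding genes. Inside the bodies of the 10 genes there were 4 WT summits in all, and these were the ones at the 5′ ends of Pnpla2, Abhd5, Mgll and Ldah. The long bodies of Mgll, Ldah and Lpin1 held no other.

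**Figure D3:**
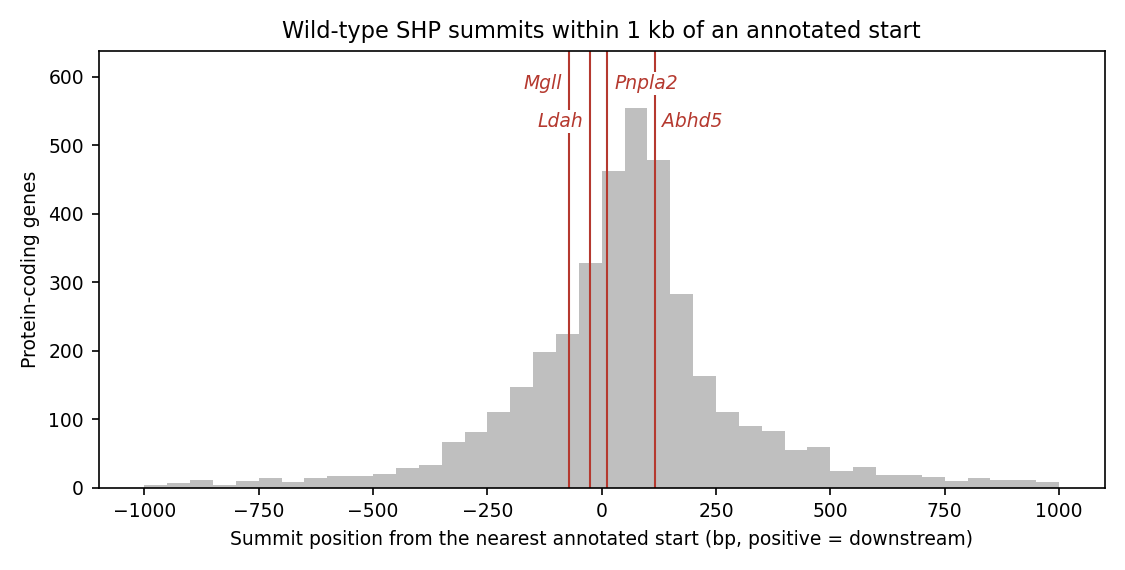
The grey bars count protein-coding genes by the position of the closest WT summit within 1 kb of an annotated start, with downstream positive. Red lines mark the 4 of the 10 genes that had one, against 3858 of the 17492 protein-coding genes with an annotated start. Mgll (-72 bp), Ldah (-26 bp), Pnpla2 (12 bp) and Abhd5 (116 bp) all lie in the central part of the distribution.

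The summits of Pnpla2, Abhd5, Mgll and Ldah had the usual position relative to a start. Over the 3858 protein-coding genes with a summit within 1 kb of an annotated start, the median position was 60 bp downstream of it, with an interquartile range of -62.75 to 157 bp. Pnpla2 (12 bp), Abhd5 (116 bp) and Ldah (-26 bp) fell inside this range, and Mgll (-72 bp, from its closer start) fell just outside it. The summit was at or downstream of the start in 65.0% of genes and in Pnpla2 and Abhd5 of these 4.

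The promoters of these 4 genes were richer in CpG dinucleotides than most of those of the other 6 genes. The ratio of observed to expected CpG was 0.563 for Pnpla2, 0.934 for Abhd5, 0.871 and 1.08 for the Mgll starts, and 0.948 and 0.874 for the Ldah starts. Among the 6 genes without a summit within 1 kb of an annotated start, it was 0.434 for G0s2, 0.363 for Plin2, 0.344 for Plin3, 0.0919 for Lpin1, 0.481 and 0.587 for Plin5, and 0.0748 and 0.681 for Lipe. Medians were 0.904 over 6 windows and 0.399 over 8 windows, and the ranges overlapped, since Pnpla2 lay below the upper Plin5 and Lipe values. The lowest of the 8 windows, those of Lpin1 and the lower Lipe value, belong to starts 42937 and 8374 bp inside their genes. The sequence at the Lpin1 peak, at the outer 5′ end, was therefore not measured. Over all protein-coding promoters the median ratio was 0.567, just above the 0.563 of Pnpla2. The median was 0.796 for promoters of occupied genes, against 0.412 for promoters of genes without a near summit. The share of promoters whose gene was occupied was 7.24% at a ratio under 0.2 and 54.2% at 1.0 to 1.2. The part of CpG content in the occupancy of the 10 genes was not tested.

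**Figure D4:**
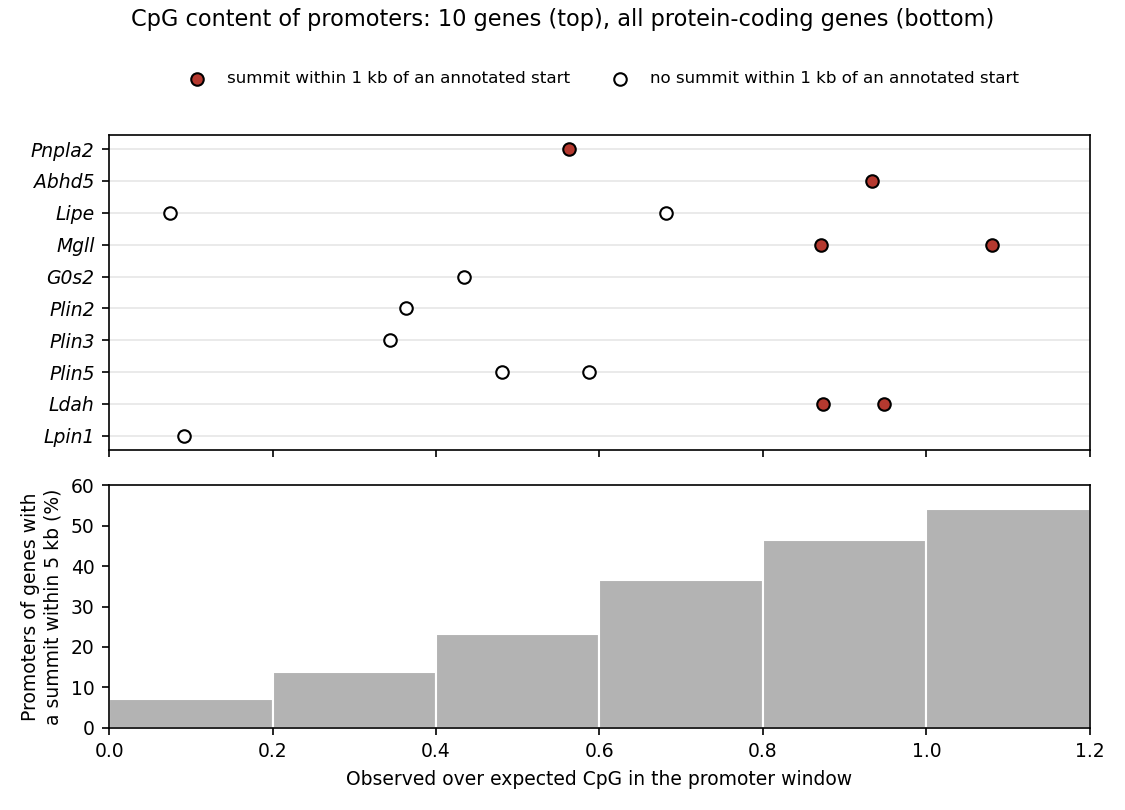
In the upper panel each point is a promoter window of a named gene, placed by its observed over expected CpG ratio and filled where the gene had a WT summit within 1 kb of an annotated start. The open Lpin1 point belongs to a start inside the gene, away from the Lpin1 peak. In the lower panel bars give the share of protein-coding promoters in each CpG class whose gene had a summit within 5 kb, which ran from 7.24% to 54.2%.

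The GC box was the commonest of the motifs in the 14 windows of the 10 genes. It was in 10 of the 14 windows (71.4%), against 46.2% of all promoters. Ldah and Lpin1, both occupied, had none. Lipe, G0s2, Plin2 and Plin3, which had no near summit, each held it in a window. Among all promoters the GC box was in 67.3% of those of occupied genes, against 38.1% of those of genes without a near summit. The 10 genes did not follow this difference. The extended site AAGGTCA occurred in Abhd5 alone of the 10 genes, on the opposite strand, with its middle 182 bp from the summit. It was present in 2.81% of promoters of occupied genes, against 4.57% of promoters of genes without a near summit, and in 4.08% of all. The E-box core CACGTG occurred in Mgll, 261 bp from the summit, and also in Plin2 and in the upstream Lipe start, which had no near peak. It was present in 10.3% of promoters of occupied genes, against 6.89% of promoters of genes without a near summit, and in 7.84% of all. The element TGACGTCA occurred in Ldah alone, 44 bp from the summit of the strongest near peak, in a stretch that both Ldah windows cover. It was in 3.16% of promoters of occupied genes, against 1.88% of promoters of genes without a near summit, and in 2.23% of all. TGACTCA occurred in 1 Plin5 window. It was in 3.08% of promoters of occupied genes, against 5.26% of promoters of genes without a near summit, and in 4.66% of all. The direct repeat was in none of the 14 windows and in 0.047% of all promoters. CACGTG and TGACGTCA read the same on both strands. Matches describe these windows and do not show that a factor bound there.

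Other genes of triglyceride and droplet metabolism were occupied about as often as genes in general. The 40 further genes included other perilipins, CIDE proteins, lipases, acyltransferases and proteins of droplet assembly. Of these 40 genes, 11 had a summit within 5 kb (27.5%), against 26.4% of all protein-coding genes. Among the 11, Plin4 counted through 2 summits that also counted for Plin5. The highest values were at Ddhd2, which encodes a lipase that hydrolyses triglyceride in neurons (8.64, summit 62 bp from an end), Agpat2, an acyltransferase of triglyceride synthesis (7.53, 478 bp), Spast, a microtubule-severing protein also found on droplets (7.34, 1069 bp), and Spart, a protein that links droplets to autophagy (6.84, 17 bp). The value at Ddhd2 was above that of Ldah (8.30).

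**Figure D5:**
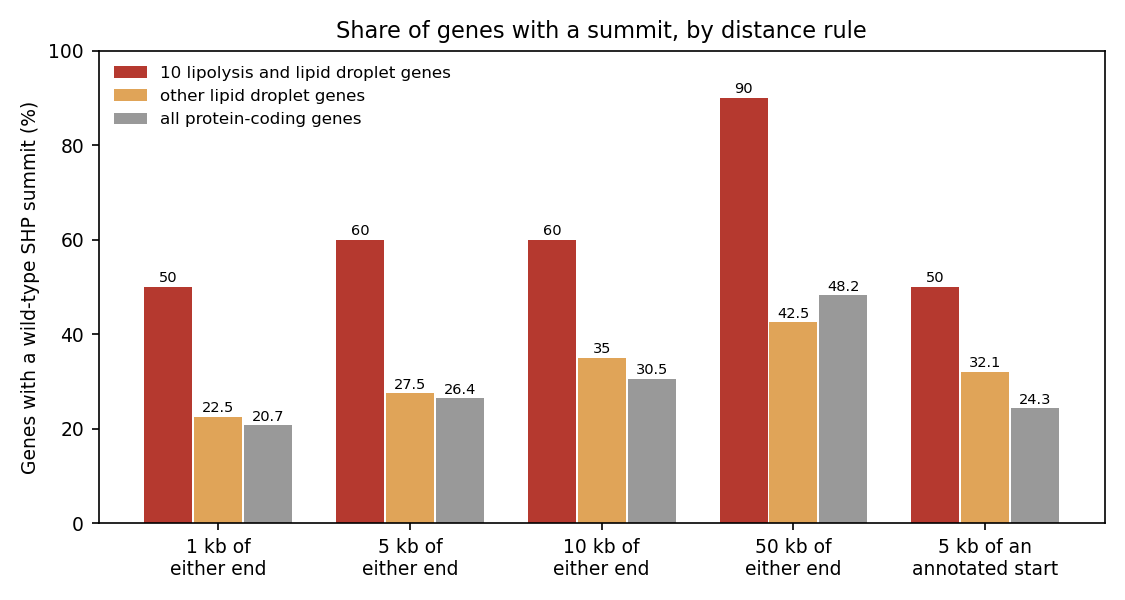
Bars give the percentage of genes with a WT SHP summit under 5 distance rules for the 10 genes, the 40 other lipid droplet genes (28 of them for annotated starts) and all protein-coding genes. The 10 genes stand at 50% to 90%, the other droplet genes at 22.5% to 42.5% and all genes at 20.7% to 48.2%.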

How the data were processed

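SHP ChIP peak lists of SHP-KO and WT intestine were used, 1 per genotype. CASAVA 1.4, BWA and mm10 are named in the submitters' processing notes. How peaks were called, and whether inputs were subtracted or the 3 sets pooled, is not given in the sources used here. The deposited lists have the 10 columns of the narrowPeak layout. The deposited signal (called the enrichment value), the deposited score and the deposited −log10 p and −log10 q are the authors' values and only describe, rank or filter WT peaks. By their names, the WT list passed an irreproducible discovery rate filter of 0.05 and the SHP-KO list holds overlapping peaks.

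Coordinates were made 1-based. Gene ends came from a RefSeq table (GRCm38.p6), and strand, annotated starts and promoter sequence from a RefSeq promoter table that covers 17492 of 21887 protein-coding genes, the 10 genes among them. Of the 40 further genes, 39 matched by symbol and 1 (Spart) by synonym. The 4 with the highest enrichment value are named in the results, and Plin4 as a neighbour of Plin5. Others of the 40 are named only in the last section, outside this rule. Neighbours are named where they share a near summit with one of the 10 genes or lie closest to a summit within 50 kb; some that the rule names are not reported here. The genes and lists were chosen with earlier results of these data known, and none was tested. The distance and motif functions were tested on simulated data. Python 3.11.15, pandas 2.3.3, numpy 2.4.6 and matplotlib 3.10.9 were used. Motif shares at summit windows were planned but need a genome and were not run.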

Additional observations from a re-analysis of the deposited data

How the results depend on the processing

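Of 9 alternatives for the count of occupied genes, 8 left between 5 and 9 of the 10 genes occupied. Under these 8 the share of all protein-coding genes ran from 14.8% to 48.2%. The exception was a threshold at the 75th percentile of the enrichment value, which left 3 (Plin5, Ldah and Lpin1). It left 4 of the 40 other droplet genes and 1507 of all protein-coding genes (30%, 10% and 6.89%). A threshold at the median −log10 p left 5 of the 10 genes (Mgll dropped out), 6 of the 40 and 3230 of all genes (50%, 15% and 14.8%). Within 50 kb, 9 of the 10, 17 of the 40 and 10548 of all genes were occupied (90%, 42.5% and 48.2%). Restriction to autosomes was added after the data were seen. The strongest value became 6.65 for Pnpla2 within 10 or 50 kb and 6.77 for Mgll within 50 kb, through peaks closer to other genes. On the given strand alone, AAGGTCA was in 0 of the 14 windows. Unknown read depth and single lists allow no interval for any value, and a gene without a listed peak may still have signal below the filter. No paired analysis was possible because each genotype had 1 list.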

Other observations

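The lipin and perilipin families outside the 10 genes, the diacylglycerol acyltransferases and Lipa were looked at after their values had been seen. Lpin2, a phosphatidate phosphatase related to Lpin1, had a summit 9 bp from an end with a low enrichment value of 4.23, against 6.66 at Lpin1, and Lpin3 had a summit within 10 kb but none within 5 kb. Plin4 had 2 summits within 5 kb, of which the stronger (5.64) was 128 bp from an end, and Plin1, the perilipin of fat cells, had a summit within 10 kb but none within 5 kb. Of the diacylglycerol acyltransferases, which make triglyceride, Dgat1 had a summit 178 bp from an end (5.39) and Dgat2 had none within 50 kb. Lipa, which encodes the acid lipase that breaks down droplet lipid in lysosomes, had none within 50 kb. Of all protein-coding genes 51.8% had none within that distance.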
